A study of Mus musculus with 10 samples.

Results

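The genes described here encode the proteins that neutrophils pack into granules and cytosol as they mature. They were chosen by name, with earlier results of these data known. The early or azurophil granule genes are Mpo, Ctsg, Elane and Prtn3, and the late or specific granule genes Ltf, Camp, Ngp and Lcn2. The last are the genes of the cytosolic pair S100a8 and S100a9. All 10 had a probe set on the array, 1 each, among 45037 probe sets without controls, and all 10 were bright enough to enter the test. Cochlear RNA of 9-month-old male mice had been hybridised to 10 arrays. The D257A mice (n = 5) carried PolgD257A on both alleles, which removes the proofreading activity of the mitochondrial DNA polymerase, and the WT mice (n = 5) were Polg+/+. The labels give no further allele, treatment or strain background, and the design text states that no replicates were done, so it is not certain that each array is a separate animal and p-values measure the spread between these samples only.

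Neutrophils are made in bone marrow. Promyelocytes transcribe the genes of the azurophil granules, whose serine proteases and myeloperoxidase kill ingested microbes; myelocytes and metamyelocytes then switch these genes off and transcribe those of the specific granules, which carry iron-binding and antimicrobial proteins. S100a8 and S100a9, which together form calprotectin, are transcribed late and stay abundant in mature cells. Blood neutrophils have largely stopped transcribing the azurophil genes, so early transcripts mark immature cells of the lineage. Lactoferrin and lipocalin 2 are also made by glandular epithelia.

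Over all arrays the trimmed mean signal was 1494.4 to 1496.2, the pairwise correlation of log2 signals was 0.854 to 0.951, and D257A replicate 2 (mean r 0.89) and WT replicate 3 (0.914) correlated least with the other arrays of their group. Cochlear markers were present: Coch, the main protein of spiral ligament fibrocytes, averaged 68700 ± 8933 in D257A and 74290 ± 6934 in WT (SD, n = 5 each). None of the 12 tested cochlear markers was called by limma. Of all 16 with a probe set, 6 were positive (median log2 fold change -0.1, against 0.092 over all probe sets, tested or not). The 2 at an unadjusted p below 0.05, Otog and Myo7a, were lower in D257A. Their log2 fold changes were -0.58 and -0.46 (limma adjusted p = 0.116 and 0.262). The hair cell genes Slc26a5, Pou4f3 and Tmc1 and the tectorial membrane gene Tecta were below the brightness needed for the test. In such whole-tissue RNA, fewer cells of a type and less RNA per cell cannot be told apart. Polg itself averaged 2751 ± 542.4 in D257A and 2792 ± 477.6 in WT (SD, n = 5 each), which does not check a point mutation.

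The promoters of the early genes are shown because those 4 genes had the same sign in these arrays and because factors of the granulocyte lineage are known to act on them. Camp, Ngp, Lcn2, S100a8 and S100a9 had that sign too, so it does not set the early genes apart. The sequences are the 250 bases before the annotated start from RefSeq (GRCm38.p6), 5′ to 3′ on the strand of the gene, and capitals mark AGGAAGT, a sequence of the ETS family to which PU.1 belongs. Mpo lies at chr11:87793534-87793783 (plus strand), Ctsg at chr14:56102575-56102824 (minus strand), Elane at chr10:79886062-79886311 (plus strand) and Prtn3 at chr10:79879417-79879666 (plus strand).
Mpo: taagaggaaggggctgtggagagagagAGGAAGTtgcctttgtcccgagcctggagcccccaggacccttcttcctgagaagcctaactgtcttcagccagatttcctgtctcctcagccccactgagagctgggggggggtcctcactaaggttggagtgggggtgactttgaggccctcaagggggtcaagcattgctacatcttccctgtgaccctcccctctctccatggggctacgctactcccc
Ctsg: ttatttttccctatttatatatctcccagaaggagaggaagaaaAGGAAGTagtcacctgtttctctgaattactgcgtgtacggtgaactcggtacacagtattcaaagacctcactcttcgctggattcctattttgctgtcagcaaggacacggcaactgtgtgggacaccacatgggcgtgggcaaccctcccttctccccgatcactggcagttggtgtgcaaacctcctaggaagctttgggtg
Elane: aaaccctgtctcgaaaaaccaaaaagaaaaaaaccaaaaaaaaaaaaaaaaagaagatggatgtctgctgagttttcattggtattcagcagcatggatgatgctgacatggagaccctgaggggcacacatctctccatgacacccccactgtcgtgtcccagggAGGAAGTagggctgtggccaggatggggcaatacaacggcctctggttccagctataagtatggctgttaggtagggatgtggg
Prtn3: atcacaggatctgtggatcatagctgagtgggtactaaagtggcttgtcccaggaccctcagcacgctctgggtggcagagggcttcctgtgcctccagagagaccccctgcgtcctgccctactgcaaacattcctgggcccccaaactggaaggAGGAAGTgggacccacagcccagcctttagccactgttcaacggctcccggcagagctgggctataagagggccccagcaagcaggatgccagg
AGGAAGT, on either strand, was found in all 4 early promoters, in S100a8 and in none of the 4 late ones, and 7.69% of 32851 promoters of the same length held it. It starts 223 bases before the start of Mpo, 206 before Ctsg, 84 before Elane and 94 before Prtn3. Elane and Prtn3 are neighbours with 3137 bases between them. They also share CAACGG, a MYB-type sequence present in 4.05% of promoters, which starts 51 bases before Elane and 56 before Prtn3. The RUNX-type TGTGGT (14.0% of promoters) occurred in Ctsg and S100a9. The 4 sequences were picked after the promoters had been read, and none of the matches overlapped another.

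Ltf and Ngp are shown as late genes that lie on the same chromosome, with 596279 bases between them, and that had opposite signs in these arrays. Here capitals mark TTNNGCAA, a sequence of the C/EBP type. Ltf lies at chr9:111019042-111019291 (plus strand) and Ngp at chr9:110419558-110419807 (plus strand), with the same build and orientation.
Ltf: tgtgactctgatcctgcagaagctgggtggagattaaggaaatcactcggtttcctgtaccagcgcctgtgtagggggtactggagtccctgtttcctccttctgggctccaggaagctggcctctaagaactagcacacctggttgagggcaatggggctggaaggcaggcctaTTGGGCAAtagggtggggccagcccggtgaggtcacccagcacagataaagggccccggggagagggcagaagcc
Ngp: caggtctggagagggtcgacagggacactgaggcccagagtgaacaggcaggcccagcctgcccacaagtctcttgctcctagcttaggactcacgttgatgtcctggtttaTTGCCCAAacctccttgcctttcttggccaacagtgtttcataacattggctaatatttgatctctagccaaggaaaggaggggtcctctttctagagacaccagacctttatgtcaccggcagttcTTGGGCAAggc
TTNNGCAA on either strand was present in 9.56% of promoters, and among the 10 genes in Ltf, Ngp, Lcn2 and S100a9. These letter matches describe the windows only; binding was not measured.

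**Figure D1:**
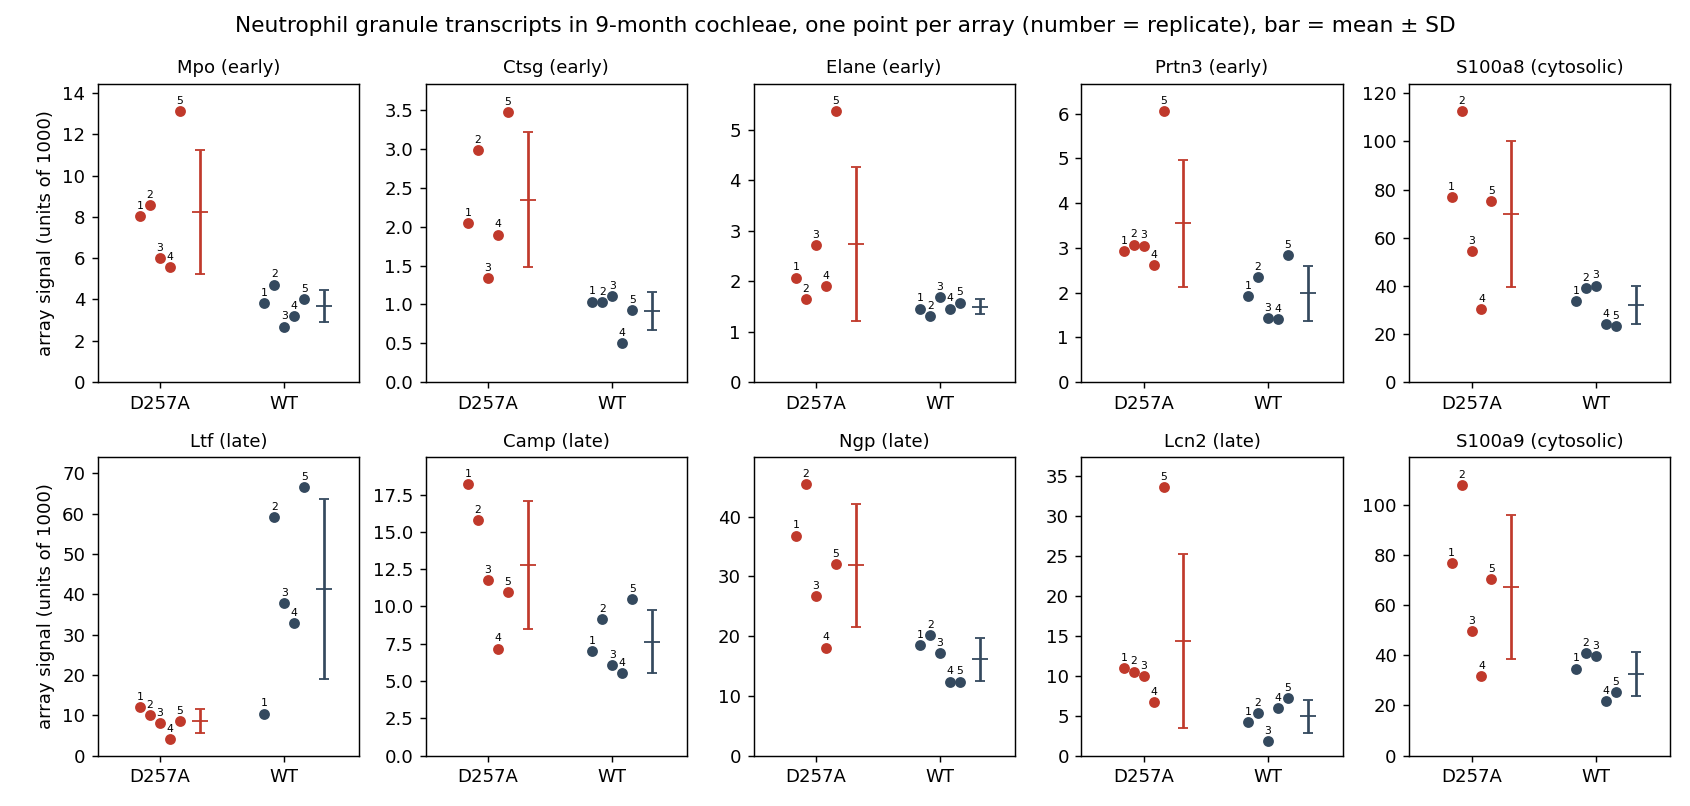
Array signal (in units of 1000, linear axis from 0) of the 10 transcripts, 1 point per array labelled with its replicate number, D257A left and WT right, with mean ± SD (n = 5 each) beside the points. Mpo and Ctsg are the transcripts whose 2 groups do not overlap, and Ltf is the one that is lower in D257A.

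Among the 10 genes, Mpo and Ctsg rose and Ltf fell in D257A cochleae, while the other 7 were higher on average in D257A without passing the test. The test was limma on log2(signal + 16), with p-values adjusted over all 22518 tested probe sets and a threshold of 0.05. In it, 2.28% of tested probe sets were called, 1.03% higher and 1.24% lower in D257A, against 3 of these 10 genes, 2 higher and 1 lower. At an unadjusted p below 0.05 the fit held all 10, 9 of them higher, against 16.9% of all tested probe sets in either direction and 8.28% higher. The 10 genes were chosen with earlier results of these data known, and most varied together over the arrays. These shares are therefore given as a description. The median log2 fold change over all tested probe sets was -0.0005. The D257A values lay wholly above the WT values for 2.47% of tested probe sets and wholly below for 2.69% (5.16% in either direction), and among the 10 genes wholly above for Mpo and Ctsg. Leaving out D257A replicate 2 and WT replicate 3 together kept Ctsg and Ltf as called and put Mpo at an adjusted p of 0.0638.

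Mpo, on chromosome 11, encodes myeloperoxidase, the haem enzyme that makes hypochlorous acid. Its signal was 8037.3, 8554.7, 5998.5, 5575.1 and 13120.3 in D257A replicates 1 to 5, against 3807.1, 4718.6, 2682.3, 3191.1 and 3996.1 in WT replicates 1 to 5. Every D257A array was above every WT array, by the least margin in D257A replicate 4, and D257A replicate 5 was highest. The mean was 8257 ± 3003 in D257A and 3679 ± 779.3 in WT (SD, n = 5 each), 2.24 times as high, with a log2 fold change of 1.12 (SE 0.24, limma adjusted p = 0.0309). Leaving out 1 array lost the call without D257A replicate 1, 2 or 5 and without WT replicate 1, 2, 4 or 5, with adjusted p of 0.0518 to 0.0825.

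Ctsg encodes cathepsin G, a chymotrypsin-like serine protease of the same granules, and lies on chromosome 14. The D257A arrays gave 2050.9, 2991.3, 1335.7, 1899.0 and 3479.1, and the WT arrays 1036.1, 1025.1, 1102.6, 498.6 and 921.8. The groups did not overlap, with D257A replicate 5 again highest and WT replicate 4 lowest. The mean was 2351 ± 867.1 in D257A and 916.8 ± 242.6 in WT (SD, n = 5 each), a log2 fold change of 1.31 (SE 0.29, limma adjusted p = 0.0337). The call was lost without D257A replicate 1, 2 or 5 and without WT replicate 2, 4 or 5, with adjusted p of 0.0614 to 0.0846. Ctsg is also transcribed in mast cells. Of 10 mast cell, basophil and eosinophil markers, 6 were positive and 4 negative (median log2 fold change 0.13, against 0.092 over all probe sets). Only the mast cell genes Cpa3 and Cma1 were bright enough to test, and neither was called. Cpa3 averaged 709.1 ± 121.2 in D257A and 789.8 ± 97.04 in WT (SD, n = 5 each). Cma1 averaged 851.8 ± 146.5 in D257A and 851.4 ± 176.0 in WT. The other 8 were below the tested brightness. The part of mast cells in the Ctsg result was not tested.

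The neighbouring genes Elane, for neutrophil elastase, and Prtn3, for proteinase 3, are serine proteases with a shared locus on chromosome 10. Elane measured 2070.3, 1642.1, 2716.4, 1908.0 and 5376.3 in D257A and 1455.0, 1301.1, 1688.5, 1456.3 and 1574.5 in WT. Only D257A replicate 2 dipped into the WT range, and the WT arrays lay close together. D257A was higher in 24 of the 25 pairings of a D257A with a WT array, which the design text counts as the study's pairwise comparisons, with a log2 fold change of 0.73 (SE 0.28, limma adjusted p = 0.193). Prtn3 measured 2933.5, 3074.2, 3050.5, 2611.1 and 6061.9 in D257A and 1921.4, 2343.9, 1423.5, 1397.9 and 2835.5 in WT. It was likewise higher in 24 of 25 pairs, the exception being D257A replicate 4 against WT replicate 5, with a log2 fold change of 0.81 (SE 0.26, limma adjusted p = 0.133). In both genes D257A replicate 5 stood well above the other arrays. Neither gene was called in any fit that left out 1 array.

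Among the late genes, the antimicrobial peptide precursor gene Camp and its relative Ngp, both on chromosome 9, had similar orders of arrays. Camp, the mouse cathelicidin, measured 18223.6, 15762.5, 11772.8, 7176.2 and 10979.2 in D257A and 6983.5, 9138.7, 6090.8, 5534.5 and 10487.9 in WT. D257A replicate 4 fell inside the WT range and the other 4 D257A arrays were above it, for a log2 fold change of 0.71 (SE 0.26, limma adjusted p = 0.179). Ngp, neutrophilic granule protein, measured 36837.5, 45445.6, 26691.0, 18081.2 and 32100.4 in D257A and 18456.8, 20112.1, 17126.1, 12409.4 and 12402.4 in WT. Again D257A replicate 4 alone overlapped with WT. The means of Ngp were 31830 ± 10320 in D257A and 16100 ± 3535 in WT (SD, n = 5 each), a log2 fold change of 0.94 (SE 0.24, limma adjusted p = 0.0613). Without D257A replicate 4 its limma adjusted p was 0.0185. In the other 9 fits that left out 1 array Ngp was not called, with limma adjusted p up to 0.165.

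Lcn2 encodes lipocalin 2, which binds bacterial siderophores and is also an acute-phase gene of epithelia. Its signal was 10982.9, 10520.2, 9925.8, 6752.6 and 33667.0 in D257A and 4229.5, 5341.1, 1794.3, 5943.4 and 7231.1 in WT. D257A replicate 5 was far above every other array, and D257A replicate 4 was below WT replicate 5. The log2 fold change of 1.44 was the highest of the 10 genes, but so was the SE among the positive ones (0.43), and the limma adjusted p was 0.105.

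Ltf, for the iron-binding protein lactoferrin, was the exception. It measured 12042.1, 10102.0, 8039.4, 4035.4 and 8655.5 in D257A, against 10408.9, 59173.8, 37739.6, 32903.8 and 66639.7 in WT. The D257A arrays ranged from 4035.4 to 12042.1, WT replicates 2 to 5 were far above all of them, and WT replicate 1 lay within the D257A range. The mean was 8575 ± 2969 in D257A and 41370 ± 22350 in WT (SD, n = 5 each), a log2 fold change of -2.11 (SE 0.45, limma adjusted p = 0.0306). The call was lost without D257A replicate 3, 4 or 5 and without WT replicate 2, 4 or 5, with adjusted p of 0.054 to 0.0939; without WT replicate 1 the adjusted p was 0.00221.

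Markers of glands and mucosa were mostly lower in D257A, as Ltf was. Of 15 such markers, 14 were negative (median log2 fold change -2.62), and 9 of the 13 bright enough to test were called lower. In D257A, 4 of those 13 (Muc5b, Tff2, Gp2 and Krt14) averaged below the brightness needed, so they entered the test through WT alone. Their summed signal was 69275 to 120550 in D257A and 197489 to 495784 in WT, and none was at 0, although Scgb1a1 and Agr2 were too dim to test. WT replicate 1, the WT array with the lowest Ltf, also had the lowest WT score for the 15 markers, at 0.36. The other WT arrays scored 1.28 to 1.93 and the D257A arrays -1.79 to -1.07. WT replicate 1 thus scored above all D257A arrays, although its Ltf signal lay within the D257A range. Within D257A the orders differed: replicate 1 had the highest Ltf signal (12042.1) but scored -1.79, while replicates 2 and 5 scored -1.07 and -1.14. Dmbt1, a mucosal scavenger receptor, measured 1174 ± 793 in D257A and 69230 ± 30000 in WT (SD, n = 5 each; limma adjusted p = 0.000179). The part of these tissues in the Ltf result was not tested.

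**Figure D2:**
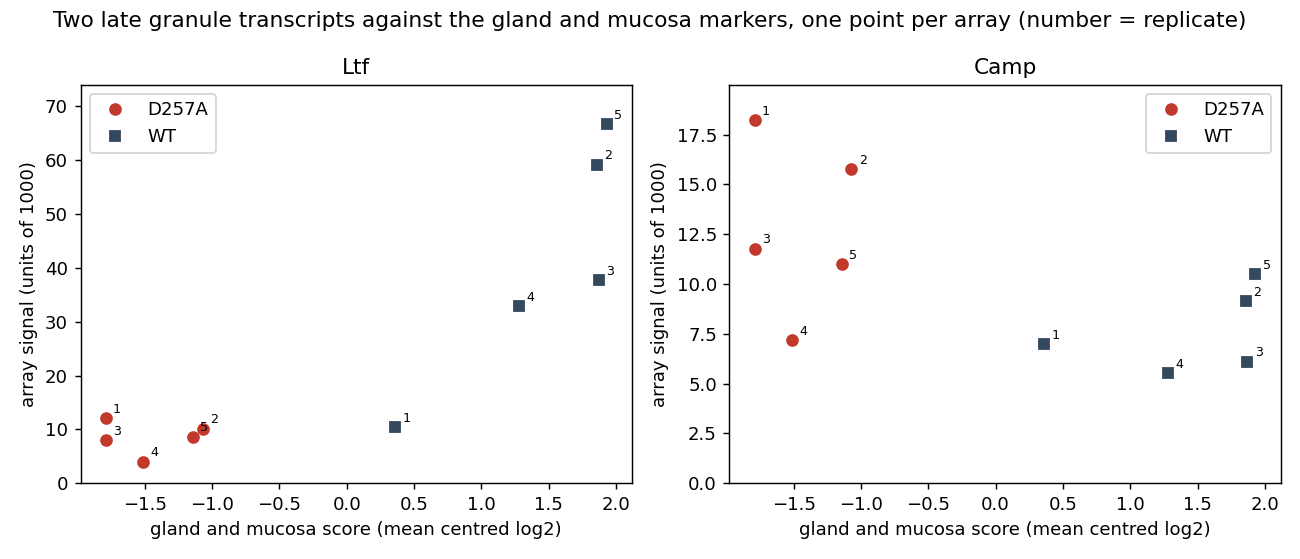
Signal of Ltf (left panel) and Camp (right panel) in units of 1000, against the mean centred log2 signal of the 15 gland and mucosa markers, 1 point per array labelled with its replicate number. WT replicate 1 sits apart from the other WT arrays on the marker axis (0.36) and has the lowest WT signal of Ltf (10408.9), while its Camp signal (6983.5) is the median of the WT arrays.

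By pattern over the 10 arrays, Ltf was nearest, among 11861 other genes compared, to Traf3ip1 (Pearson r 0.965), Lyz2 (0.962), Rgs8 (0.961), Cacna1e (0.96) and Lin7a (0.959); this comparison was chosen after the values were seen. Lyz2 encodes lysozyme, made by neutrophils, macrophages and, through a near-identical gene that the probe set may not separate, by some epithelia. It measured 14300 ± 3485 in D257A and 70020 ± 25520 in WT (SD, n = 5 each; log2 fold change -2.22, limma adjusted p = 0.00307) and kept its call whichever array was left out. The groups did not overlap: the D257A arrays ranged between 9256.2 and 18850.5, and WT replicate 1 was lowest in WT at 29373.2.

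S100a8 and S100a9 stand on chromosome 3 with 22595 bases between them, and their products form the calcium- and zinc-binding complex calprotectin. S100a8 measured 76870.2, 112529.4, 54261.1, 30109.5 and 75306.7 in D257A and 33579.9, 39146.1, 40054.9, 24081.3 and 23129.8 in WT. S100a9 measured 76617.9, 107779.2, 49496.7, 31605.0 and 70418.1 in D257A and 34657.6, 40954.5, 39754.2, 21706.2 and 25176.0 in WT. The order of arrays was nearly the same for both genes (Pearson r 0.99 over the 10 arrays, as a description). D257A replicate 2 was highest, and D257A replicate 4 lay inside the WT range while the other 4 D257A arrays were above it. The log2 fold changes were 1.04 (SE 0.30, limma adjusted p = 0.101) and 0.98 (SE 0.30, limma adjusted p = 0.113). Without D257A replicate 4 the limma adjusted p was 0.0184 for S100a8 and 0.0305 for S100a9. In the other 9 fits that left out 1 array neither was called, with limma adjusted p up to 0.233 and 0.245. The probe set of S100a8 is of a type (_s_at) that can match more than 1 transcript.

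**Figure D3:**
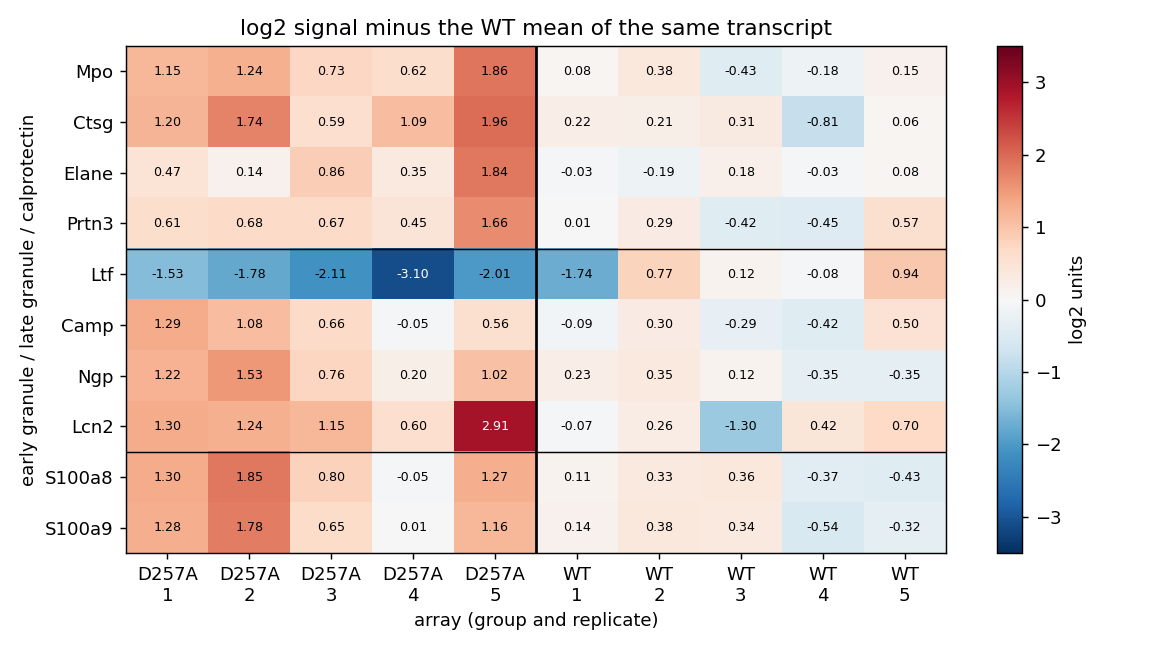
log2(signal + 16) of each transcript minus its WT mean, for D257A replicates 1 to 5 and then WT replicates 1 to 5. Red is above and blue below the WT mean. D257A replicate 4 is between -0.05 and 0.20 for Camp, Ngp, S100a8 and S100a9. It is between 0.35 and 1.09 for the 4 early genes, and the late gene Lcn2 lies in that range too, at 0.60. Ltf is between -3.10 and -1.53 on the D257A arrays, at -1.74 on WT replicate 1 and at -0.08 on WT replicate 4.

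Early and late genes were then set against each other array by array, with each gene centred on its mean over all arrays in log2 units and the genes of a stage averaged. The scores rest on the genes chosen here and are given as values with no test. The early score was 0.36, 0.45, 0.21, 0.13 and 1.33 in D257A replicates 1 to 5 and -0.43, -0.32, -0.59, -0.86 and -0.29 in WT replicates 1 to 5, so all D257A arrays were above all WT arrays. The late score was 0.45, 0.39, -0.01, -0.71 and 0.50 in D257A and -0.54, 0.30, -0.46, -0.23 and 0.32 in WT, with overlap. The early minus late difference averaged 0.37 ± 0.44 in D257A and -0.37 ± 0.35 in WT (SD, n = 5 each), 0.75 higher in D257A, again with overlap. D257A replicates 4 and 5 had the highest differences (0.84 and 0.83), and D257A replicate 1 (-0.09) lay below WT replicate 1 (0.11).

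That difference rested on Ltf. With Ltf left out of the late genes, an alternative chosen after the values were seen, the late score averaged 0.52 ± 0.50 in D257A and -0.52 ± 0.33 in WT (SD, n = 5 each). The early minus late difference was then -0.02 ± 0.37 in D257A and 0.02 ± 0.25 in WT, that is -0.04 between the groups. The average of Camp, Ngp and Lcn2, none of them called, thus differed between the groups about as much as the early average. Unlike the early score it overlapped, with D257A replicate 4 (-0.27) below WT replicates 2 (-0.21) and 5 (-0.23). The D257A arrays also fell in the same order in both scores, replicate 5 highest and replicate 4 lowest, but with different spacing. In D257A replicates 4 and 5 the early genes were ahead of these 3 late genes (differences 0.40 and 0.35), and in D257A replicates 1, 2 and 3 behind them (-0.39, -0.31 and -0.13). The WT arrays spanned a similar range, with -0.23 in replicate 4 and 0.42 in replicate 3. The score of S100a8 and S100a9 was 0.79, 1.31, 0.22, -0.52 and 0.71 in D257A and -0.38, -0.15, -0.15, -0.96 and -0.88 in WT. D257A replicate 4 therefore combined an early score above all WT arrays with a calprotectin score inside the WT range.

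**Figure D4:**
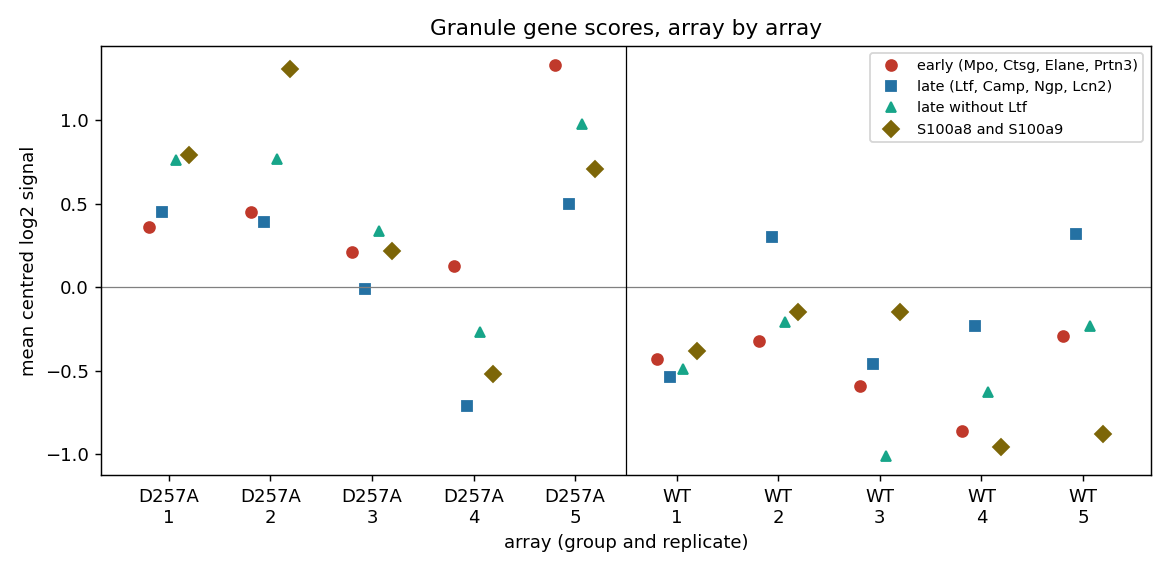
Mean centred log2 signal of the early genes, the late genes, the late genes without Ltf, and S100a8 with S100a9, for D257A replicates 1 to 5 and then WT replicates 1 to 5. The early score is above 0 on every D257A array (0.13 to 1.33) and below 0 on every WT array (-0.86 to -0.29), while the late score overlaps between the groups.

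The wider sets of neutrophil genes held few calls. Among 6 tested promyelocyte and early granule genes outside the 4 above, 3 were positive and 3 negative, with a median log2 fold change of 0.22. None was called higher and 1, Cebpa, was called lower. The other negative genes were Myb and Gfi1, at log2 fold changes of -0.18 and -0.09 (limma adjusted p = 0.768 and 0.927). Ms4a3, a membrane protein of granulocyte-monocyte progenitors, measured 1405.7, 2372.3, 1325.2, 1238.1 and 1489.0 in D257A and 1213.3, 1201.7, 876.4, 1064.0 and 930.3 in WT. Its D257A values lay wholly above WT, as did those of 2.47% of all tested probe sets, and the limma adjusted p was 0.198. Ctsc, the protease that activates the granule serine proteases, averaged 5686 ± 1386 in D257A and 3846 ± 351.3 in WT (SD, n = 5 each; limma adjusted p = 0.144). The proteoglycan gene Srgn, whose product holds proteases in granules, had a log2 fold change of 0.59 (limma adjusted p = 0.129). Ms4a3, Myb and Gfi1 are named here after their values were seen.

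Of 15 late granule genes outside the list, 10 had a positive log2 fold change. The median of all 15 was 0.13, near the 0.092 over all probe sets. Of the 13 tested, none was called higher and Lyz2 was called lower. Chil3, a chitinase-like protein of neutrophils and macrophages, measured 11827.3, 23250.2, 8034.9, 3449.4 and 18142.2 in D257A and 4278.2, 4673.8, 4222.7, 2852.9 and 3342.9 in WT. Its D257A replicate 4 lay inside the WT range, as for the calprotectin genes, and the limma adjusted p was 0.0859. Pglyrp1, a peptidoglycan-binding protein, averaged 2510 ± 2666 in D257A and 9418 ± 5867 in WT (SD, n = 5 each; limma adjusted p = 0.167). As with Ltf and Lyz2, its lowest WT array was replicate 1 (1244.7). The gelatinase gene Mmp9 had a log2 fold change of 0.09 and the collagenase gene Mmp8 one of 0.64, both without a call and named after their values were seen.

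Of 9 genes of mature neutrophils with a probe set, 8 were positive and 1, Ptafr, was negative; their median log2 fold change was 0.82, against 0.092 over all probe sets. Of these, 5 were tested and Fpr2 was called higher; Csf3r, Clec4d and Trem1 averaged below the tested brightness in WT and entered the test through D257A alone. Fpr2 encodes a formyl peptide receptor that also binds the Camp peptide. It measured 2521.9, 5085.2, 2037.4, 1081.8 and 3342.7 in D257A and 881.2, 844.3, 912.1, 691.7 and 883.2 in WT, without overlap (log2 fold change 1.55, SE 0.33, limma adjusted p = 0.0293). The call was lost without D257A replicate 1 or 5 and without WT replicate 1, 2, 4 or 5, with adjusted p of 0.0514 to 0.0795. Csf3r, the receptor for the granulocyte growth factor G-CSF, averaged 951 ± 198 in D257A and 552.1 ± 204.3 in WT (SD, n = 5 each; limma adjusted p = 0.128). Trem1, an amplifier of neutrophil and monocyte activation, had a log2 fold change of 0.95 (limma adjusted p = 0.193). D257A replicate 4 had the lowest score of this list among D257A arrays (-0.48), inside the WT range of -0.61 to -0.20.

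Transcription factors of the lineage were split in sign: of 8 tested, 4 were positive and 4 negative, with a median log2 fold change of 0.11. Cebpa, which starts granulocyte commitment and is also expressed in fat and epithelia, fell to 2126 ± 385.6 in D257A, against 4319 ± 1222 in WT (SD, n = 5 each; log2 fold change -0.99, limma adjusted p = 0.0322). Its groups did not overlap, and the call was lost without D257A replicate 1, 3 or 5 and without WT replicate 1, 2 or 5, with adjusted p of 0.0547 to 0.104. Cebpd, a stress-induced member of the same family, measured 2386.5, 8067.0, 3620.6, 3558.4 and 11659.5 in D257A and 1812.9, 2088.7, 1790.4, 1566.1 and 1723.4 in WT. Its groups did not overlap either, but the D257A spread was wide and the limma adjusted p was 0.0568. Spi1, which encodes PU.1, had a log2 fold change of 0.49 (limma adjusted p = 0.307). Cebpe, the factor of the specific granule stage, was not analysed here.

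Of 9 genes for signals that recruit neutrophils or drive their production, 8 were positive and 1, Csf2, was negative. Their median log2 fold change was 1.14, against 0.092 over all probe sets, and 5 were too dim to test. Of the 4 tested, Cxcl2 was called higher. Cxcl2, a chemokine that attracts neutrophils, measured 2293.5, 22452.7, 2251.6, 456.2 and 18451.3 in D257A and 113.7, 396.3, 458.9, 295.1 and 258.1 in WT (log2 fold change 3.77, SE 0.88, limma adjusted p = 0.046). D257A replicate 4 overlapped with WT. Every WT signal lay below the mean signal of 577.4 at which testing began, so Cxcl2 was tested through its D257A signals alone, its call is no support for a difference in such signals, and the size of the difference is uncertain. Leaving out an array in turn ended the call in 8 of 10 fits, at adjusted p of 0.0645 to 0.115; it held without D257A replicate 4 and without WT replicate 3. Il1b, for interleukin 1 beta, measured 1449.0, 8263.5, 1799.7, 428.0 and 6835.6 in D257A and 643.3, 421.1, 834.8, 684.4 and 487.4 in WT (limma adjusted p = 0.148). Cxcl12, which holds neutrophils in the marrow, averaged 7824 ± 607.2 in D257A and 5832 ± 414.6 in WT (SD, n = 5 each; limma adjusted p = 0.117). D257A replicates 2 and 5, the highest for Cxcl2 and Il1b, also held the 2 highest values of Mpo, Ctsg, Prtn3 and Fpr2. They did not for the other granule genes: replicate 2 ranked 6 of 10 arrays for Elane, and replicate 5 ranked 4 for Camp. D257A replicate 4, the lowest D257A array for Cxcl2 and Il1b, was also the lowest D257A array for 8 of the 10 granule genes, all but Ctsg and Elane.

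Receptors and inhibitors of the granule proteins gave 5 positive and 4 negative values among 9, with Fpr2 alone called among the 8 tested. Slpi, an inhibitor of elastase and cathepsin G, measured 1647.4, 2795.0, 1673.5, 1154.7 and 6676.1 in D257A and 1101.0, 1156.2, 1262.3, 649.3 and 1219.9 in WT (limma adjusted p = 0.176). Serpinb1a, an intracellular inhibitor of the same proteases, averaged 1669 ± 766.4 in D257A and 1052 ± 621.3 in WT (SD, n = 5 each; limma adjusted p = 0.401).

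Markers of other blood and marrow cells were read beside these values. Their medians include genes too dim to test, and the median log2 fold change over all probe sets, tested or not, was 0.092. Monocyte and macrophage markers were positive in 8 of 9, with a median log2 fold change of 0.24, no limma call (2 at an unadjusted p below 0.05) and a summed signal of 33813 to 47832 in D257A and 30424 to 38854 in WT. Of these, C1qb, a macrophage complement gene, had a log2 fold change of 0.45 (limma adjusted p = 0.208). Megakaryocyte and platelet markers were positive in 6 of 7, median 0.27, again with no limma call (2 at an unadjusted p below 0.05); Gp1bb, a subunit of a platelet adhesion receptor, averaged 1621 ± 238.8 in D257A and 1053 ± 98.19 in WT (SD, n = 5 each; limma adjusted p = 0.0709). Erythroid markers were negative in 5 of 7, median -0.17, with no limma call. The 1 at an unadjusted p below 0.05 was Slc4a1 (log2 fold change -0.5, limma adjusted p = 0.225). Alas2, the first enzyme of haem synthesis in red cells, averaged 6092 ± 2764 in D257A and 10110 ± 4516 in WT (limma adjusted p = 0.367). Genes of dividing cells were negative in 6 of 9, median -0.07, with no limma call (1 at an unadjusted p below 0.05) and with Rrm2 at a log2 fold change of -0.87 (limma adjusted p = 0.0869). None of 9 B lineage markers was bright enough to test, and of 6 T and NK markers only Cd8a was tested (log2 fold change -0.26, limma adjusted p = 0.727). Skeletal muscle markers were negative in 10 of 10, 6 of them called (Myh2 tested through WT alone), with a summed signal of 9424 to 158985 in D257A and 93080 to 355851 in WT. The part of any of these cells in the granule results was not tested.

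**Figure D5:**
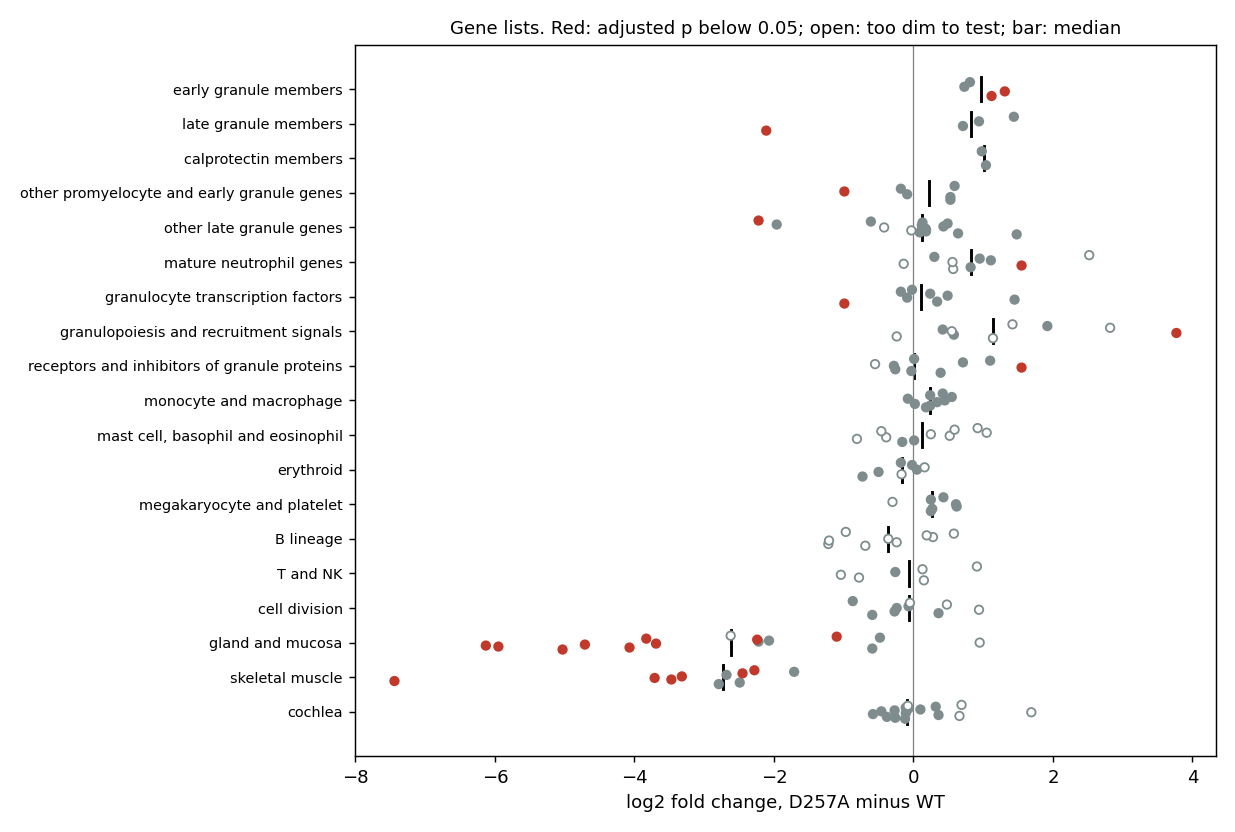
log2 fold change (D257A minus WT) of each gene with a probe set, by list, with red points for a limma adjusted p below 0.05, open points for genes too dim to test and a black bar at the median of all genes of the list. The early granule genes lie between 0.73 and 1.31, and Ltf stands apart from the other late granule genes at -2.11.

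By pattern over the 10 arrays, the genes nearest to the early score among 11861 compared were Sirt6 (Pearson r 0.944), Slpi (0.934), Ccrl2 (0.923), Ncf4 (0.913) and Cebpd (0.907). Ccrl2 is a chemerin-binding receptor of activated neutrophils and other cells, and Ncf4 a subunit of the phagocyte oxidase. Those nearest to the late score were Tbcel (0.918), Snx24 (0.897), Ccnl1 (0.825), Alox5ap (0.808) and Trmt6 (0.806), of which Alox5ap serves leukotriene synthesis in leukocytes. Between the granule genes themselves, r with Mpo was 0.88 for Ctsg, 0.73 for Elane, 0.92 for Prtn3, 0.75 for Camp, 0.82 for Ngp, 0.91 for Lcn2, 0.78 for S100a8 and S100a9, and -0.57 for Ltf. These values include the difference between the groups, share the scaling of each array, and are given as a description.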

How the data were processed

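Cochlear RNA of 9-month-old male mice, 5 D257A and 5 WT samples grouped by their titles, was measured on 10 arrays. The deposited values are linear array intensity, 1 per probe set. Per the submitters' processing notes the software was GCOS 1.3. How it corrected background, summarised probes and set a scaling target is not stated in the labels, and the authors' scaling was kept. The 64 control probe sets were left out. Of 45037 others, 34945 had 1 gene in the platform table, 932 several and 9160 none, and a gene was read by its brightest probe set. The number of arrays limits the precision.

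Fold changes are differences of log2(signal + 16), which understates those of dim genes. The brighter fraction of 0.5 by mean log2 signal (22518 probe sets, from a mean signal of about 577.4) entered limma 3.58.1 (R 4.3.3), with group as the only term, eBayes moderation along the intensity trend and 8 residual degrees of freedom. Its two-sided p-values were adjusted by Benjamini and Hochberg's method across these probe sets, with a threshold of 0.05. The scripts were tested on simulated data.

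The members and gene lists were chosen with earlier results of these data known. Genes to be named were the 10 members with every probe set, Polg, and the 5 genes nearest by Pearson r to the early and to the late score. To these came at most 3 tested genes, those with the smallest unadjusted p, from each of 16 other lists. Not all of these are printed, and others, among them Coch, Ms4a3, Mmp8 and Mmp9, are named outside this rule. Some genes of the lists (among them Cebpe, Fpr1 and Cd63) were not analysed here. Promoters are RefSeq's for GRCm38.p6, matched by symbol for 10 of 10 members, and the 4 motifs were sought on both strands. Alternatives were array weights, a replicate block, each array left out, pseudocounts of 1 and 64, arrays centred on the median or quantile-normalized, a filter at the brightest 30% or none, eBayes without the trend, averaged probe sets of a gene and, added after seeing the data, leaving out both arrays least correlated with their group and other sets of late genes.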

Additional observations from a re-analysis of the deposited data

Results flagged for a closer look

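D257A replicate 5 stood apart from the other D257A arrays in 3 genes and in 1 score: its gap to the next D257A array, as a share of the range of the group, exceeded 0.71, the limit of Dixon's test for 5 samples. Elane measured 5376.3 on that array, against 2716.4 on the next highest. Prtn3 measured 6061.9, against 3074.2, and Lcn2 33667.0, against 10982.9. The early score was 1.33, against 0.45. Of 28 groups examined, 4 held such an array, all in D257A. Genes were examined as linear signal, which spreads high values more than the log2 scale of the fits does, and scores in log2 units. Chance alone marks about 1 group in 20 only where groups are independent and values normal, and these genes varied together. The early score is made in part of Elane and Prtn3 and is not a separate observation. Without D257A replicate 5 the log2 fold change was 0.46 for Elane, 0.60 for Prtn3 and 1.07 for Lcn2.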

How the results depend on the processing

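All 10 genes kept their sign in all 21 alternatives. In them Mpo lost its call 8 times and Ctsg and Ltf 7 times each, while Ngp and S100a8 gained one 2 times and Elane and S100a9 1 time each. Leaving out 1 array put the number of called genes among the 10 between 0 and 5 (3 with all arrays); it was 0 in limma without D257A replicate 5 or WT replicate 2, 4 or 5, where all 10 still had an unadjusted p below 0.05. It was 5 without D257A replicate 4, and 1, Ltf, without D257A replicate 1 or 2. Array weights called 6. Over all probe sets, the 513 calls became 322 among the brightest 30%, where fewer were tested, 1217 with array weights, and 168 to 574 when 1 array was left out; the cause of the other changes was not tested. Centring arrays on the median moved the median log2 fold change to -0.101 and the share of calls that were higher to 26.6% from 45.4%. The other shares more than 10 points away were 59.1% without D257A replicate 4, 34.0% without WT replicate 1 and, counted by gene, 29.5% with the mean over probe sets. The early minus late difference of 0.75 lay between 0.63 and 0.87 when 1 array was left out, and turned to -0.04 with Ltf left out of the late genes.

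The labels number the arrays 1 to 5 in both groups without saying that a number is shared. Same-numbered arrays deviated from their group means with correlations of 0.183, -0.214, -0.337, 0.148 and 0.181, which differ in sign. Arrays with different numbers were not compared in this way, so these values cannot decide whether same-numbered arrays share more than a number. With the replicate block, 188 probe sets and 1 of the 10 genes, Mpo, were called.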

Other observations

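The genes nearest in pattern to Camp, Ngp and Lcn2 together, and to the calprotectin genes, were looked up after the values were seen, over the 10 arrays and 11861 genes. Nearest to Camp, Ngp and Lcn2 were Ifitm6 (Pearson r 0.931), Apobr (0.919), Gdpd1 (0.914), Prrc2c (0.914) and Ttr (0.913). Ifitm6 measured 2981 ± 925.9 in D257A and 1196 ± 169.5 in WT, and Ttr, the thyroxine carrier of choroid plexus and liver, 94330 ± 56810 in D257A and 8513 ± 2500 in WT (SD, n = 5 each). Nearest to S100a8 and S100a9 were Wfdc21 (0.973), Chil3 (0.968), Gda (0.966), Gdap10 (0.964) and Angpt2 (0.959). Wfdc21, a small protein with a WAP domain, measured 3335 ± 1233 in D257A and 1701 ± 220.8 in WT (SD, n = 5 each), and Gda, guanine deaminase, 7769 ± 3995 in D257A and 4081 ± 1061 in WT.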
